A study of Mus musculus with 6 samples.

Results

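Mecom, Hlf, Procr, Meis1, Hoxa9, Mllt3, Mycn, Sox4, Angpt1 and Ifitm1 are 10 genes associated with haematopoietic stem cells and multipotent progenitors, taken from the 55487 genes of the count table by symbol in the GENCODE M21 annotation. Their RNA was followed in megakaryocyte-erythroid progenitors, the shared precursors of the red cell and platelet lineages. The cells came from the bone marrow of C57BL/6 wild-type mice, all aged 8 weeks. There were 3 control libraries and 3 libraries after 6 h of fasting, in a study of how short fasting acts on red cell formation. The labels give the controls no other treatment and do not say whether a library came from 1 mouse or from a pool, so p-values measure the spread between these libraries. Polyadenylated RNA was sequenced in bulk.

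Stem cells at the top of blood formation keep a set of transcription factors that is turned down as cells commit to a lineage. Mecom and Hlf encode factors of the most immature cells, and Procr encodes the endothelial protein C receptor, a surface marker of stem cells. Meis1 and Hoxa9 encode homeodomain proteins that bind DNA together, and Mllt3 encodes AF9, a reader of acylated histones that works with the elongation machinery and DOT1L and is known for maintaining human stem cells. Mycn and Sox4 encode transcription factors of growth and of early progenitors, Angpt1 a secreted ligand of the receptor TEK, and Ifitm1 a small interferon-inducible membrane protein. Megakaryocytic progenitors share part of this set with stem cells, MEIS1 and angiopoietin 1 among them.

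The 2 genes whose fasted libraries lay wholly outside the range of the control libraries were Meis1, which was lower, and Mllt3, which was higher. Such a separation was seen for 27.3% of all genes tested (14.4% higher and 12.9% lower), so 2 of 7 members is near that share. The promoter windows of these genes are shown as examples. RefSeq (GRCm38.p6) windows from 250 bases before to 50 bases after a start were found for 9 of the 10 genes, 11 windows in all. The part before the first annotated base is printed 5′ to 3′ in the direction of the gene, with motif matches on either strand in capitals. The printed part of the Meis1 window lies at chr11:19018986-19019219 on the minus strand and holds a RUNX core match. Mllt3 has a start at the far end of the gene (chr4:88033408-88033657, minus strand) and an internal one (chr4:87806324-87806573, minus strand). The internal window holds a MEIS core match, read on the opposite strand, and the first overlaps an exon of another gene model, Gm12631.
Meis1: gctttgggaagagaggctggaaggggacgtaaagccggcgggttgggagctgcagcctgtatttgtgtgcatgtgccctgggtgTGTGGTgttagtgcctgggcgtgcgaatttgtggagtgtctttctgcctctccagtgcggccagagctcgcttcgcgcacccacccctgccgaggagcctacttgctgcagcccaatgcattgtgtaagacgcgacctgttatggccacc
Mllt3 first start: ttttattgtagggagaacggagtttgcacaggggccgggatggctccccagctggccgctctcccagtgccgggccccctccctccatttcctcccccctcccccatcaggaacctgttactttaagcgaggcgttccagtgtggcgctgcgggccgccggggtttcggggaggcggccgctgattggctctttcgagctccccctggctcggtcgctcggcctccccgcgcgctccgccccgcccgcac
Mllt3 internal start: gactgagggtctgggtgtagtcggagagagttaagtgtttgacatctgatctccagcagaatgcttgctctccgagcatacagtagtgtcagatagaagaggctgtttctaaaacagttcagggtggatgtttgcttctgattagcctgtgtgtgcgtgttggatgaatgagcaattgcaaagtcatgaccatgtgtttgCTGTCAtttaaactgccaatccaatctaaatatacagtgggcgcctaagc
Counts are summed over each gene, so the Mllt3 starts cannot be told apart. Each of 6 motifs was searched on both strands over the whole 300 bases of each window. The RUNX core, TGTGGT, was in 16.8% of all 32851 windows and, among the members, in Meis1 alone. The MEIS core, TGACAG, was in 19.2% of all windows and in those of Mecom, Mllt3 and Mycn. The ETS core, CCGGAAG, was in 8.9% of all windows and in the part of the Meis1 window that is not printed. The E-box bound by MYC proteins, CACGTG, was in 7.2% of all windows and in no member window. The GATA core, GATAAG, was in 7.4% of all windows and in no member window. The PAR bZIP site of HLF, TTACGTAA, was in 0.1% of all windows and in no member window. A missing match says only that these letters are not in these windows.

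Libraries held 12797144 to 30246110 counts, and every control library was deeper than every fasted library. Reads that fall on silent genes were measured on 1464 odorant and vomeronasal receptor genes. At their rate per base, background took up 3.90% to 8.59% of the counts in control and 11.5% to 14.6% in fasted libraries, so this background, depth and fasting cannot be told apart. Control library 1 was the deepest and had the lowest background. Of 36508 genes with enough counts to be fitted, 10641 reached a mean count of 5 times what background alone gives a gene of that length, and the comparison was made on these. Levels are CPM, counts divided by the library's total over these genes after TMM scaling. Of the 10 genes, 7 passed. Mecom, Procr and Hlf, at 1.96, 2.12 and 3.17 times the background, did not, and Mllt3 had the lowest mean of those that passed, at 6.54 times. This is a mean of raw counts, so the deeper control libraries weigh more in it. In fasted libraries 1, 2 and 3, Mycn was at 4.07, 6.18 and 4.31 times and Hoxa9 at 4.66, 5.39 and 5.27 times. Mllt3 was at 5.15, 6.50 and 6.37 times there.

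The sorted cells carried genes of their label, and also genes of granulocytes and monocytes. Kit, the stem cell factor receptor of early progenitors, was at 353 to 688 CPM. The erythroid factor genes Gata1 and Klf1 were at 158 to 390 and 238 to 697 CPM, and the platelet genes Pf4 and Itga2b at 29.6 to 98.7 and 94.4 to 275 CPM. Ly6a, which encodes Sca-1 and is high on mouse stem cells, was at 3.12 to 9.21 CPM. Such progenitors are usually gated as low for CD34 and for the Fc receptors encoded by Fcgr3 and Fcgr2b, while the gate of this study is not given in the sources used here. Cd34 was at 173 to 584 CPM, Fcgr3 at 13.8 to 124 CPM, Fcgr2b at 30.2 to 69.9 CPM, and the granulocyte genes Mpo and Elane at 573 to 10880 and 56.3 to 2637 CPM. Of 18 granulocyte and monocyte markers, all 18 were at or above 5 times the background, and their summed level was 4154 to 20210 CPM in control and 2306 to 5306 CPM in fasted libraries. In control libraries 2 and 3 it was 13400 and 20200 CPM, above the 9660 and 5650 CPM summed over 20 erythroid markers. In the other libraries the erythroid sum was the higher.

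No member passed the test, and none of the 10641 genes did. edgeR's quasi-likelihood test with Benjamini-Hochberg adjustment called 0 of the 7 members and 0 of all genes (percent called 0). At an unadjusted p under 0.05 there were 2 members, beside 19.8% of all genes. They were Mllt3, higher (11.5% of all genes), and Angpt1, lower (8.30%). The groups lay apart for 2 members, Mllt3 and Meis1, beside 27.3% of all genes. limma-voom called 0 members and 0 of all genes. DESeq2 called 1 member, Mllt3, as higher in the fasted group, beside 4.73% of all genes (3.07% higher and 1.65% lower). Of the 7 members 6 had a log2 fold change below 0 and 1 above, with a median of -0.28, against 0.02 over all genes tested. Mycn, the lowest of them, was under 5 times the background in fasted libraries 1 and 3. This median rested on control library 1, since it was 0.05 without it, with 5 of the 7 above 0. In bulk RNA, fewer cells of a type and less RNA per cell cannot be told apart.

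**Figure D1:**
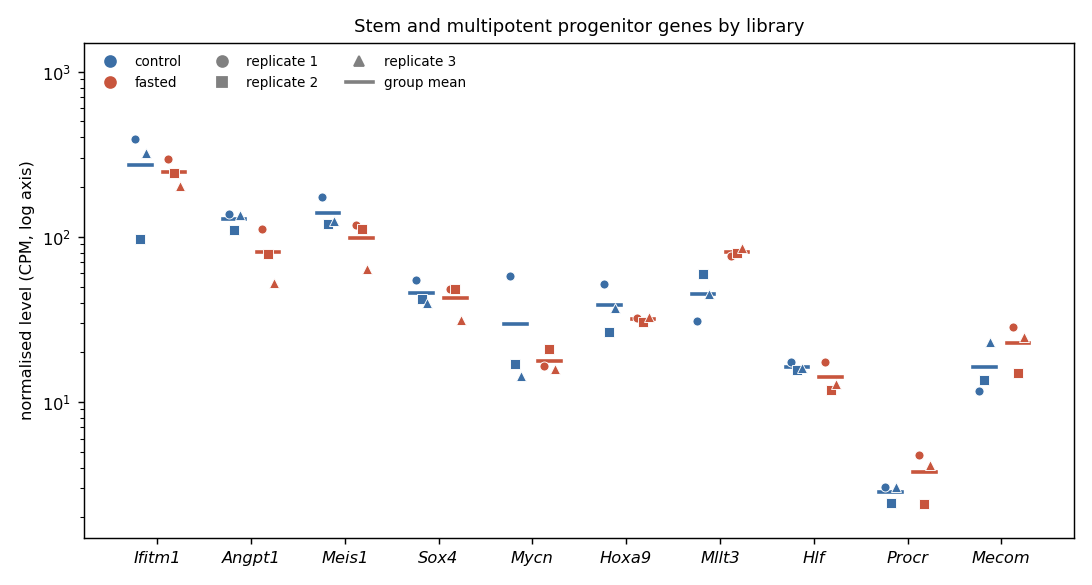
Normalised level in CPM on a log axis for the 10 genes, ordered by their mean level per length, in 3 control (blue) and 3 fasted (red) libraries, with the shape of a point giving the replicate number and bars the group means. The fasted points of Mllt3 all lie above the control points, those of Meis1 all lie below, and the other genes overlap.

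Per length and after subtraction of the background, given as net RPKM, reads per kilobase scaled as CPM, the 10 genes spanned a wide range. Ifitm1 had a mean of 236 net RPKM over the 6 libraries, Angpt1 19.2, Meis1 10.5, Sox4 8.37, Mycn 6.36, Hoxa9 5.48, Mllt3 4.40, Hlf 1.45, Procr 0.801 and Mecom 0.731. Ifitm1, with 87.5 to 359 net RPKM, lay above every library of every other member. Each neighbour below it overlapped with the next over the libraries. Within every library Angpt1 was above Meis1. The genes of the most immature cells, Hlf, Procr and Mecom, thus had the lowest levels per length.

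Meis1 (ENSMUSG00000020160.18, GRCm38 chromosome 11, 18879817 to 19018985, minus strand) had 174, 120 and 125 CPM in control libraries 1, 2 and 3. It had 119, 112 and 64.1 CPM in fasted libraries 1, 2 and 3. Control library 1 was the highest and fasted library 3 the lowest, and the groups were separated by only 1 narrow step, between control library 2 and fasted library 1. Groups lay apart in the lower direction for 12.9% of all genes. The mean went from 140 CPM ± 29.5 (SD, n = 3) to 98.2 CPM ± 29.7 (SD, n = 3), a log2 fold change of -0.51 (SE 0.24, 95% interval -1.06 to 0.05, edgeR adjusted p 0.285). Without fasted library 3 the log2 fold change was -0.28, and without control library 1 it was -0.32. Of its exonic bases 9.8% are shared with an unconfirmed model on the same strand and 8.5% with an antisense model, both of which had at most 93 counts in a library.

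Hoxa9 (ENSMUSG00000038227.15, chromosome 6, 52223100 to 52231089, minus strand), whose protein pairs with MEIS1, had 52.1, 26.6 and 36.9 CPM in control libraries 1, 2 and 3. It had 32.2, 30.7 and 32.8 CPM in the fasted libraries, all inside the control range. The fit gave it a log2 fold change of -0.28 (SE 0.24, 95% interval -0.81 to 0.26, edgeR adjusted p 0.537), and without control library 1 it was 0.00. Of the homeobox relatives, Hoxa7 was at a log2 fold change of 0.02 (SE 0.26, edgeR adjusted p 0.979). Hoxa5, Hoxa10, Meis2 and Meis3 lay at 1.71 to 2.25 times the background and were not tested. For Hoxa9 the SD was 12.8 CPM among control and 1.08 CPM among fasted libraries (n = 3 each). The fit on background-subtracted counts gave Hoxa9 a log2 fold change of -0.387 (SE 0.265, edgeR adjusted p 0.482).

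Mllt3 (ENSMUSG00000028496.17, chromosome 4, 87769925 to 88033364, minus strand) had 31.1, 59.7 and 44.8 CPM in control libraries 1, 2 and 3. It had 76.4, 79.6 and 85.3 CPM in fasted libraries 1, 2 and 3. All fasted libraries lay above all control libraries, a separation in the higher direction that 14.4% of all genes showed. The mean went from 45.2 CPM ± 14.3 (SD, n = 3) to 80.4 CPM ± 4.52 (SD, n = 3), which is 1.78 times as high. The log2 fold change was 0.83 (SE 0.22, 95% interval 0.33 to 1.33), with an unadjusted p of 0.0043 and an edgeR adjusted p of 0.143. It was between 0.62 and 1.05 with each library left out in turn.

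Background made up a sizeable part of the Mllt3 counts, which were 5.03 to 8.94 times the background in control and 5.15 to 6.50 times in fasted libraries. After subtraction the level was 2.27, 4.42 and 2.99 net RPKM in control libraries 1, 2 and 3 and 5.13, 5.61 and 5.99 in the fasted libraries, and the groups still did not overlap. How many of all genes lay apart after subtraction was not counted. The fit on background-subtracted counts gave a log2 fold change of 0.87 (SE 0.24, edgeR adjusted p 0.207). Of the genes whose proteins work with AF9, Dot1l, a histone methyltransferase gene, had a log2 fold change of 0.41 (SE 0.21). Aff4, an elongation scaffold gene, had 0.60 (SE 0.42). Dot1l and Aff4 were named for the highest log2 fold changes among the 18 tested relatives and partners of the members. Of these 18, 11 were above 0 and 7 below. In the same list Aff1 was at 0.33 (SE 0.14), Kmt2a at 0.26 (SE 0.14) and Mllt10 at 0.15 (SE 0.15). Mllt1, the closest relative of Mllt3, had 28.5 CPM ± 1.11 in control and 28.5 CPM ± 6.10 in fasted libraries (SD, n = 3 each) and a log2 fold change of 0.00 (SE 0.20). All of these genes missed the threshold, with edgeR adjusted p from 0.242 to 0.998.

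Mycn (ENSMUSG00000037169.15, chromosome 12, 12936093 to 12941914, minus strand) had 57.7, 17.0 and 14.4 CPM in control libraries 1, 2 and 3 and 16.6, 20.8 and 15.8 CPM in the fasted libraries. One control library was thus far above the other 5, which lay close together. Its counts were 54.6, 9.27 and 5.89 times the background in control libraries 1, 2 and 3. In the fasted libraries they were 4.07, 6.18 and 4.31 times, so control library 1 weighed heavily in the mean by which Mycn passed the filter. The fit on background-subtracted counts gave a log2 fold change of -0.897 (SE 0.556, edgeR adjusted p 0.444). Mycn differed by a log2 fold change of -0.74 (SE 0.52, 95% interval -1.96 to 0.47, edgeR adjusted p 0.447), and it was 0.18 without control library 1. Myc, the gene of the related factor, was much more abundant and had the same high library, with 1037, 415 and 360 CPM in control and 359, 277 and 387 CPM in the fasted ones, a log2 difference of -0.83 (SE 0.42, edgeR adjusted p 0.328). Mycl was at 0.545 times the background.

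Sox4 (ENSMUSG00000076431.4, chromosome 13, 28948919 to 28953713, minus strand) had 54.7, 42.2 and 39.98 CPM in control libraries and 48.3, 48.1 and 31.5 CPM in fasted libraries. The groups overlapped throughout, and fasted library 3 was again the lowest. The log2 fold change was -0.10 (SE 0.21, 95% interval -0.58 to 0.38, edgeR adjusted p 0.818), and it was 0.05 without control library 1 and 0.08 without fasted library 3. A long non-coding gene model on the other strand covers 54.6% of the exonic bases of Sox4, and the strand setting of the counting is not given in the sources used here, so this level is uncertain. No counts for that model were found among the genes of the count table. Of the relatives, Sox12 and Sox11 were at 3.88 and 0.803 times the background and were not tested.

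**Figure D2:**
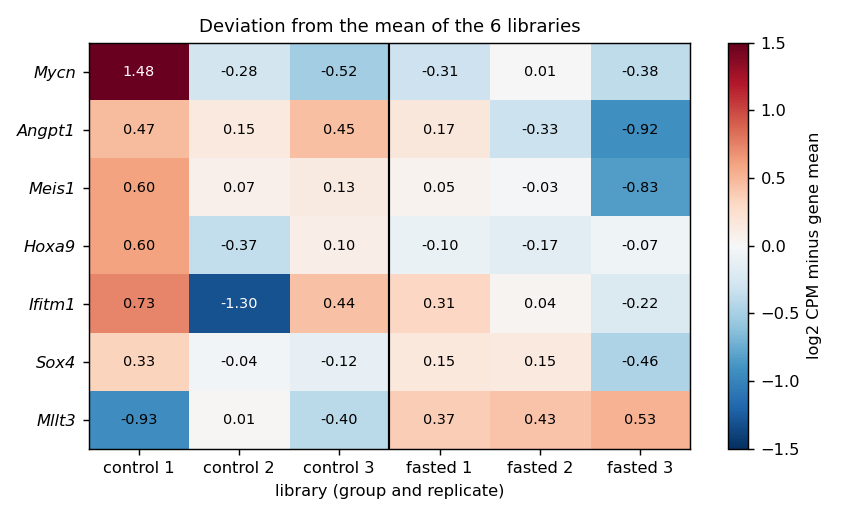
Log2 CPM minus the mean of the 6 libraries for the 7 members at or above 5 times the background, by library (red above, blue below). Control library 1 is the highest for 6 of the 7 genes and the lowest for Mllt3, and fasted library 3 is the lowest for Angpt1, Meis1 and Sox4.

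Angpt1 (ENSMUSG00000022309.9, chromosome 15, 42424723 to 42676977, minus strand) had 137, 110 and 135 CPM in control libraries 1, 2 and 3. It had 112, 79.0 and 52.5 CPM in fasted libraries 1, 2 and 3. The groups overlapped only because fasted library 1 was slightly above control library 2. The mean went from 128 CPM ± 15.2 (SD, n = 3) to 81.1 CPM ± 29.6 (SD, n = 3), and the control mean was 1.57 times the fasted one. The log2 fold change was -0.66 (SE 0.25, 95% interval -1.22 to -0.09), with an unadjusted p of 0.0273 and an edgeR adjusted p of 0.208. Without fasted library 3 it was -0.42, and without fasted library 1 it was -0.96. An antisense model shares 14.2% of its exonic bases and had 62 to 106 counts per library, against 697 to 3853 for Angpt1. Tek, the gene of its receptor, had a log2 fold change of 0.07 (SE 0.26, edgeR adjusted p 0.903). The related ligand gene Angpt2 was at 2.11 times the background.

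Ifitm1 (ENSMUSG00000025491.14, chromosome 7, 140967221 to 140969825, plus strand) had 393, 96.4 and 323 CPM in control libraries 1, 2 and 3 and 295, 244 and 204 CPM in fasted libraries. Control library 2 was the lowest of the 6 libraries by far and control library 1 the highest. The log2 fold change of -0.13 (SE 0.50) had a 95% interval of -1.36 to 1.10, wide enough to hold both a log2 change of -1 and one of 1 (edgeR adjusted p 0.904). Without control library 2 it was -0.57, and without control library 1 it was 0.24. Its neighbours in the family behaved more evenly. Ifitm2 had 272, 234 and 270 CPM in control and 232, 222 and 165 CPM in fasted libraries, and Ifitm3 had 205, 182 and 222 against 165, 163 and 90.9 CPM. For both, all fasted libraries lay below all control libraries, with log2 fold changes of -0.33 (SE 0.15) and -0.54 (SE 0.22) and edgeR adjusted p of 0.271 and 0.230. Such a separation was seen for 12.9% of all genes tested. Of the 18 tested relatives and partners, these 2 lay apart as lower and 3, Aff1, Kmt2a and Tie1, as higher. Ifitm6 was at -0.75 (SE 0.63, edgeR adjusted p 0.528) and Ifitm10 at 1.91 times the background. Ifitm1, Ifitm2, Ifitm3 and Ifitm6 are related genes that lie close together, and how reads that fit several of them were assigned is not given in the sources used here.

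**Figure D3:**
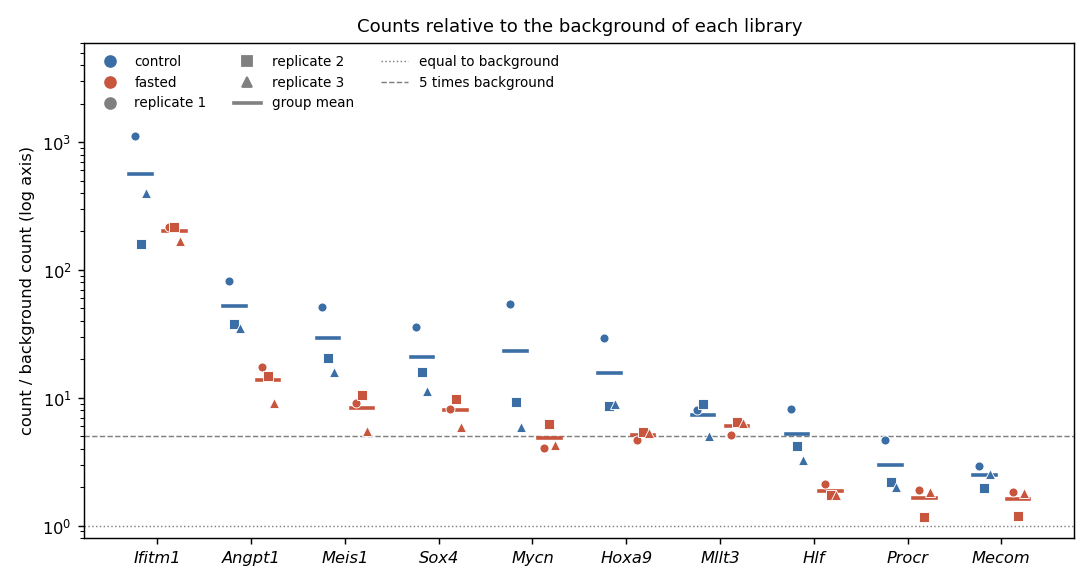
Count divided by the count expected from the background of the same library, on a log axis, for the 10 genes in control (blue) and fasted (red) libraries, with bars at group means. Hlf, Procr and Mecom lie nearest to the dotted line of the background, Procr and Mecom most closely in fasted library 2, while Ifitm1 ranges from 158 to 1122 times.

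The genes of the most immature cells, Hlf, Procr and Mecom, were close to the background. Hlf (ENSMUSG00000003949.16, chromosome 11, 90336536 to 90390895, minus strand) had 487, 368 and 318 counts in control libraries 1, 2 and 3, of which the background would give 60.1, 87.8 and 98.1. It had 202, 186 and 171 counts in fasted libraries, of which the background would give 95.1, 107 and 98.9. After subtraction it was at 2.28, 1.78 and 1.66 net RPKM in control and 1.39, 0.755 and 0.813 net RPKM in fasted libraries. The groups did not overlap on this scale, while in CPM, at 15.6 to 17.4 against 11.9 to 17.6, they did. How many of all genes lay apart on the subtracted scale was not counted, so this separation has no share to be set beside. Fitted with all 36508 genes and the same library factors, Hlf had a log2 fold change of -0.22 (SE 0.27, edgeR adjusted p 0.540), and -0.95 (SE 0.35, edgeR adjusted p 0.419) after background subtraction. Its circadian relatives Tef and Dbp were at 3.89 and 2.89 times the background.

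Procr (ENSMUSG00000027611.12, chromosome 2, 155751117 to 155755471, plus strand) had 86, 58 and 60 counts in control and 55, 38 and 55 counts in fasted libraries, where the background would give 18.3, 26.7 and 29.8 and 28.9, 32.5 and 30.1. Fasted library 2 was thus at 1.17 times the background. Mecom (ENSMUSG00000027684.16, chromosome 3, 29951296 to 30548008, minus strand) had 327, 322 and 459 counts in control and 325, 235 and 329 counts in fasted libraries, at 1.97 to 2.93 and 1.18 to 1.84 times the background. In the fit of all genes with the same factors, Procr was at 0.40 (SE 0.42) and Mecom at 0.49 (SE 0.31), with edgeR adjusted p of 0.463 and 0.226. The background itself was higher by 1.06 on that log2 scale in the fasted libraries. With background subtracted both signs turned, to -0.22 (SE 0.84) and -0.12 (SE 0.58), so no direction could be given at this depth. Prdm16, the relative of Mecom, was at 2.72 times the background.

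The calls among the members depended on which genes were fitted and on the factors, as the plot of fold changes under 3 choices shows. With all 36508 genes fitted and TMM factors taken over all of them, the 10641 more abundant genes had a median of -0.50. There, 2 of the 10 members passed as lower, Meis1 at -1.03 (SE 0.29, edgeR adjusted p 0.0457) and Angpt1 at -1.17 (SE 0.27, edgeR adjusted p 0.0333), beside 4.97% of all genes (1.15% higher and 3.82% lower). Both are among the 10641 more abundant genes, of which 1368 were called lower and 8 higher. Of the 25867 less abundant genes, 25 were called lower and 412 higher. Meis1 lost this call without control library 1, control library 2, fasted library 1 or fasted library 3 (edgeR adjusted p from 0.0826 to 0.208). Angpt1 lost it without control library 2 or fasted library 3 (0.0607 and 0.197). With the same 36508 genes and the factors of the 10641, fold changes were those of the first fit, and the median of those 10641 was 0.02. There, 1 member passed, Mllt3 as higher at 0.83 (SE 0.20, edgeR adjusted p 0.0292), beside 14.4% of all genes (13.7% higher and 0.701% lower). Of the 10641, which include Mllt3, 344 were called higher and 252 lower. Of the 25867 less abundant genes, 4644 were called higher and 4 lower. The next fits change the genes and the factors at once. A minimum of 2 times the background let 1 member pass, Angpt1 at -0.99 (SE 0.24, edgeR adjusted p 0.0356), beside 7.87% of all genes (2.48% higher and 5.40% lower). With no filter 3 members passed as lower, Meis1, Angpt1 and Hoxa9, beside 5.38% of all genes (1.19% higher and 4.19% lower). Mllt3 was above 0 and Meis1 and Angpt1 below 0 in each of these fits.

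**Figure D4:**
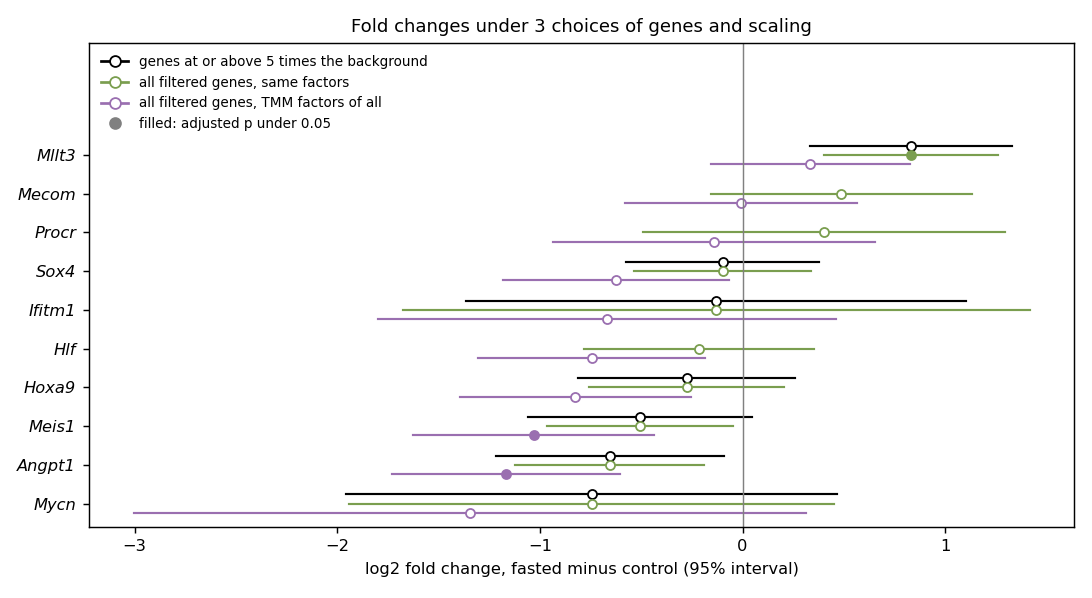
Log2 fold change, fasted minus control, with 95% intervals, for the 10 genes under 3 choices of the genes fitted and of the scaling, with filled points where the edgeR adjusted p is under 0.05. TMM factors over all filtered genes (purple) move every gene to the left. Under each choice shown the points of Mllt3 lie right of 0. Those of Mycn, Angpt1, Meis1, Hoxa9, Sox4, Ifitm1 and Hlf lie left of 0, and those of Mecom and Procr change side.

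Further genes of the stem cell programme were described from 3 lists. Of 33 relatives and partners of the members 18 could be tested, of 26 regulators of stem cells 17, and of 15 surface proteins 12, and edgeR called 0 in each list, beside 0 of all genes. At an unadjusted p under 0.05, there were 1 higher and 1 lower among the relatives, 2 higher and 2 lower among the regulators, and 1 higher and 3 lower among the surface genes, beside 11.5% higher and 8.30% lower over all genes. DESeq2 called Fli1, Cd63 and Cd48, all lower, and none of the relatives, beside 4.73% of all genes, and limma-voom called none. The median log2 fold changes were 0.04, -0.03 and -0.26 for the 3 lists, against 0.02 over all genes tested and -0.28 over the members.

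Among the regulators, Fli1, the gene of an ETS factor of stem cells and megakaryocytes, had 124, 100 and 123 CPM in control and 83.0, 68.4 and 43.0 CPM in fasted libraries. All fasted libraries lay below all control libraries, and the fit gave -0.84 on the log2 scale (SE 0.23, edgeR adjusted p 0.148). Fasted library 3 was the lowest, as for Angpt1 and Meis1. Of the 17 tested regulators, 2 lay apart as lower, Fli1 and Myb, and 3 as higher, Zfp36l1, Msi2 and Ikzf2. Over all genes tested 12.9% lay apart as lower and 14.4% as higher. Myb, which encodes a factor of progenitor proliferation, had -0.34 (SE 0.13, edgeR adjusted p 0.209). Zfp36l1, the gene of an RNA-binding protein that shortens the life of messages, had 0.61 (SE 0.20, edgeR adjusted p 0.170), and Egr1, an immediate early gene linked to stem cell quiescence, 0.82 (SE 0.78, edgeR adjusted p 0.591). Egr1 was at 171 CPM in control library 1 and at 1260 to 2113 CPM in the other 5 libraries.

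Among the surface genes, Flt3, the receptor gene of multipotent and lymphoid progenitors, had 139, 169 and 178 CPM in control and 297, 348 and 179 CPM in fasted libraries. The highest control and the lowest fasted library were almost level, and Flt3 was at a log2 fold change of 0.77 (SE 0.23, edgeR adjusted p 0.155). Eng, which encodes endoglin, had 0.35 (SE 0.18, edgeR adjusted p 0.297). Cd63 and Cd48, genes of a granule tetraspanin and of a receptor that rises as stem cells differentiate, had -1.04 (SE 0.25) and -0.89 (SE 0.28), with edgeR adjusted p of 0.131 and 0.165. Cd34 had 460, 388 and 584 CPM in control and 403, 344 and 173 CPM in fasted libraries, again lowest in fasted library 3, with a log2 fold change of -0.64 (SE 0.30, edgeR adjusted p 0.287). Kit was at -0.30 (SE 0.23) and Ly6a at -0.01 (SE 0.43), with edgeR adjusted p of 0.494 and 0.988. Fcgr3 and Fcgr2b were at -2.10 (SE 0.66) and -0.54 (SE 0.27), with edgeR adjusted p of 0.186 and 0.302.

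Markers of neighbouring cell types also varied between libraries. The summed level of the 10 members was 504 to 932 CPM in control and 528 to 749 CPM in fasted libraries, lowest in control library 2. That of 15 megakaryocyte markers was 679 to 829 CPM in control and 430 to 730 CPM in fasted libraries, lowest in fasted library 3, where Angpt1, Meis1 and Sox4 were lowest. This was not particular to megakaryocyte markers. Fasted library 3 also had the lowest sum of the granulocyte and monocyte (2306 CPM), lymphocyte (357), relatives (1484) and surface (1407) lists. The regulator, erythroid, mast cell and endothelial lists were lowest in other libraries. Of these 15 markers 8 were at or above 5 times the background, and Pf4 and Itga2b had log2 fold changes of -0.86 (SE 0.25) and -0.49 (SE 0.28), with edgeR adjusted p of 0.154 and 0.353. DESeq2 called Pf4 lower (adjusted p 0.0342), beside 1.65% of all genes called lower. The 20 erythroid markers summed to 5645 to 9656 CPM in control and 7872 to 12130 CPM in fasted libraries, highest in fasted library 3, and 18 of them were at or above 5 times the background. The granulocyte and monocyte list, given above, was at a median of -0.89 on the log2 scale, and in it control library 1 was the lowest control library. The part of these markers in the levels of the members was not tested.

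Mast cell, basophil and eosinophil markers, 12 genes of which 7 were at or above 5 times the background, summed to 310 to 451 CPM in control and 211 to 282 CPM in fasted libraries, without overlap. Cpa3 had a log2 fold change of -1.15 (SE 0.39, edgeR adjusted p 0.193), and DESeq2 called it lower (adjusted p 0.0302). The 15 lymphocyte markers, 7 of them at or above that level, summed to 495 to 847 and 357 to 746 CPM, and Cd79a had 0.93 (SE 0.41, edgeR adjusted p 0.246). Of those 7, 5 were above 0 and 2 below. The lowest, Nkg7, a gene of cytotoxic granules named here after its values were seen, had -1.63 (SE 0.48, edgeR adjusted p 0.170), and DESeq2 called it lower (adjusted p 0.00291). Endothelial and stromal cells are a usual source of Procr and Angpt1 RNA. Of their 14 markers 2 were at or above 5 times the background, Pecam1 at 17.5 and Pdgfrb at 8.12 times, named here after their values were seen. Cdh5 and Col1a1 were at 1.27 and 3.41 times. The list summed to 194 to 220 CPM in control and 256 to 333 CPM in fasted libraries, without overlap, and the background was higher in the latter too. The part of these cells in the levels of Procr and Angpt1 was not tested.

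**Figure D5:**
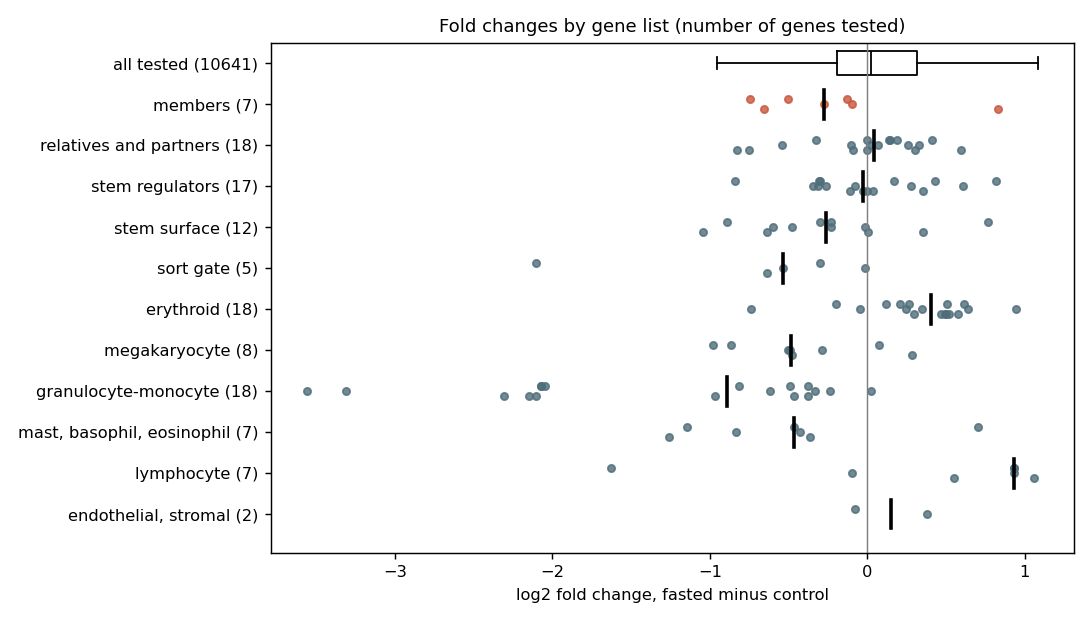
Log2 fold change, fasted minus control, of each tested gene by list, with black bars at list medians and a box of the median and quartiles of all 10641 genes with whiskers. Of the 7 members, 6 lie between -0.74 and -0.10 and Mllt3 lies at 0.83.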

How the data were processed

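Raw counts for each gene and its exonic length were deposited by the authors in 1 table. Per the submitters' processing notes, HISAT2 2.2.1 and featureCounts 2.0.1 were used with GRCm38. Annotation release, strand setting and read filters are not given in the sources used here. Of 55487 identifiers, 54349 matched GENCODE M21 with their version, all members included. The members, the gene lists and the minimum of 5 times the background, on the mean over the 6 libraries, were chosen with earlier results of these data known. Background was the summed counts over the summed length of 1464 receptor genes. Genes passing filterByExpr and this restriction were scaled by TMM and fitted in edgeR 4.0.16 (R 4.3.3) by estimateDisp and glmQLFit, robust, with group as the only term, and called at an adjusted p under 0.05. SE is the log2 fold change over the root of F. Named were all members, fixed relatives and markers, and the 2 highest and 2 lowest of each stem cell list. A gene that this rule names is not reported here. Depth was 12797144 to 30246110 counts. Alternatives were DESeq2 1.42.0, limma-voom (limma 3.58.1), other factors and filters, a replicate block and leaving out libraries. The fits were tested on simulated data.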

Additional observations from a re-analysis of the deposited data

How the results depend on the processing

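Meis1, Angpt1, Hlf and Mllt3 kept the direction of their log2 fold change in all alternatives that were run. Leaving out each library in turn gave -0.519 to 0.004 for Hoxa9, -1.102 to 0.177 for Mycn, -0.221 to 0.079 for Sox4, -0.566 to 0.241 for Ifitm1 and -0.566 to 0.053 for the members' median, so each turned. Sox4 was at 0.053 without control library 1. Ifitm1 also turned with limma-voom (0.086) and with the replicate block (0.068). Mecom and Procr turned with TMM over all filtered genes (-0.007 and -0.139), without a filter (-0.041 and -0.177) and after background subtraction (-0.123 and -0.221), the last of these chosen after seeing the data. The cause was not tested.

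Counts of calls, 0 for every list above, depended on the genes fitted, the factors and the test, and some alternatives changed more than 1 of these. TMM over all filtered genes gave 1813 calls over all genes, 2 members, 2 relatives and 8 regulators and surface genes. The factors of the restricted genes gave 5244, 1, 5 and 5. No filter gave 2849, 3, 2 and 13. A minimum of 2 times the background gave 1624, 1, 2 and 7. DESeq2 gave 503 and 1, with 3 regulators and surface genes. An adjusted p under 0.1 gave 2 over all genes, and leaving out a library 0 to 3. The members' median moved to -0.71 with TMM over all filtered genes, to -0.74 without a filter and to 0.05 without control library 1. The other alternatives left these counts at 0 and moved the median by less than 0.30, the spread between libraries.

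Same-numbered libraries did not deviate together (correlations across genes of -0.17, 0.14 and -0.33), so the numbers were not taken as pairs. With the replicate block edgeR called 0 genes, and the members' median was -0.22. Procr, Hlf and Mecom were not tested in the restricted fit and had 38 to 86, 171 to 487 and 235 to 459 counts per library.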
